A study of Mus musculus with 8 samples.

Results

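A set of 8 genes of the hair cell mechanotransduction apparatus was examined in the cochlea of mice that lack miR-183 and miR-96 and of control mice. The genes were Tmc1, Tmc2, Tmie, Lhfpl5, Cib2, Pcdh15, Cdh23 and Tomt. They were taken as a list by function, and 1 array feature stood for each gene, the one with the highest mean among the features that the platform annotation links to that symbol alone. Of the 8 genes, 6 were measured in this way, among 22180 genes measured in all. No feature carried the symbol Cib2, and the 1 feature that names Tomt also names Anapc15, so both are outside the tests.

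All animals were at postnatal day 16. The 4 knockout animals carried the genotype labelled miR-183/96 KO, and the 4 control animals are labelled control, and wild type in the study's design text. The labels used here do not state the strain, the sex or the design of the deletion. Each array holds RNA of 1 animal, from both of its cochleae taken whole with their bony capsule, so hair cells contributed only part of the RNA. The deposited unit is log2 expression after RMA, which corrects background, equalises the arrays' distributions and summarises each feature's probes, and all differences are knockout minus control.

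Hair cells convert sound into current through channels at the tips of their stereocilia. A filament called the tip link, made of cadherin 23 at its upper end and protocadherin 15 at its lower end, joins the tip of each stereocilium to the side of its taller neighbour. When the bundle is deflected, tension in this filament opens a channel whose pore is formed by TMC1 or TMC2, held in a complex with TMIE, LHFPL5 and CIB2. TMC2 is used mainly by immature cochlear hair cells, and TMC1 takes over as they mature. TOMT is needed for TMC proteins to reach the bundle.

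A microRNA pairs with its targets mainly through its seed. The guide strands of the deleted microRNAs are shown to make plain what the knockout animals lack, and that of miR-182, from the same cluster but not named in the genotype, for comparison. Sequences are from RefSeq (GRCm38.p6, all on the minus strand of chromosome 6), written 5′ to 3′, with the seed (bases 2 to 8) in capitals. miR-96-5p lies at chr6:30169506-30169528, miR-183-5p at chr6:30169711-30169732 and miR-182-5p at chr6:30165962-30165986.
miR-96-5p: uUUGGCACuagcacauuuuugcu
miR-183-5p: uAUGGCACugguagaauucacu
miR-182-5p: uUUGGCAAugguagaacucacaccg
No pair shares a whole seed. The seed of miR-96-5p equals that of miR-183-5p at 6 of 7 positions and that of miR-182-5p at 6 of 7. Sites for these seeds in the transcripts of the transduction genes were not analysed here.

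None of the 6 measured transduction genes passed the test of knockout against control cochlea, in the full set of arrays or in any alternative run. Each feature was tested with limma, a linear model fitted to all features at once, and a feature was called where its p, adjusted by Benjamini-Hochberg over the 23521 features tested, was under 0.05. The feature of Mir96 separated the groups, with 4.01 to 4.31 in the 4 knockout animals against 5.26 to 6.23 in controls, and each array therefore matched its label. The feature of Mir183 was too dim to check them (mean 2.25 in knockout and 2.58 in control). Over the whole table, 3 of 23521 features differed at a limma adjusted p under 0.05, which is 0.0128%, against 0 of the 6 genes. The feature of Mir96, a deleted gene, was among the 3 (limma adjusted p = 0.00932). Leaving out control replicate 1 gave 1 called feature, and leaving out control replicate 3 gave 21. At an unadjusted limma p under 0.05, 7.04% of all features were higher and 7.25% lower in knockout cochlea, and on the deposited values 0 of the 6 genes were in either set. All 4 knockout values lay above all 4 control values at 3.30% of features and below them at 2.65%, and the groups overlapped in all 6 genes.

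The pore genes came first. Tmc1 read 4.14, 4.16, 4.03 and 4.07 in knockout replicates 1 to 4, and 4.27, 4.06, 4.21 and 4.01 in control replicates 1 to 4. The 4 knockout values lay inside the control range. The means were 4.10 ± 0.06 in the knockouts and 4.14 ± 0.12 in the controls (SD, n = 4), a log2 difference of -0.038 (SE 0.12; limma adjusted p = 0.889). Its 95% interval ran from -0.29 to 0.21, or from 0.819-fold to 1.16-fold.

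Tmc2 read 4.63, 4.50, 4.82 and 4.74 in the knockout animals and 4.78, 4.51, 4.93 and 4.10 in the controls. Control replicate 4 was the lowest of the 8 arrays and control replicate 3 the highest, so the control group spanned the whole knockout range. The means were 4.67 ± 0.14 and 4.58 ± 0.36 (SD, n = 4), and the difference was 0.091 (SE 0.17; limma adjusted p = 0.804). The interval, from -0.27 to 0.45 or from 0.832-fold to 1.36-fold, was the widest of the 6 genes. Without control replicate 4 the difference was -0.069, so on the deposited values its sign rested on that animal. With all 8 arrays the sign also turned under quantile normalization repeated (-0.024) and cyclic loess (-0.025). With the signal range of each array as a covariate Tmc2 was at -0.39, past an unadjusted limma p of 0.05 but not called, the only such case among the alternatives run for the 6 genes.

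Both accessory genes with a feature of their own gave small differences. Tmie encodes a membrane protein that binds the pore subunits and is required for the channel current. Its feature read 6.11, 5.70, 5.91 and 5.89 in knockout and 6.09, 5.74, 5.82 and 5.75 in control animals. The first replicate of each group stood highest, at nearly the same value in both, and the other controls lay between the lowest and the next knockout value. Means of 5.90 ± 0.17 and 5.85 ± 0.17 (SD, n = 4) gave a difference of 0.054 (SE 0.12; 95% interval -0.21 to 0.32; limma adjusted p = 0.849). Without knockout replicate 1 it was -0.017.

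Lhfpl5, a tetraspan protein that links protocadherin 15 to the channel, read 4.85, 4.92, 4.88 and 4.83 in knockout animals. The controls read 5.02, 4.83, 4.64 and 4.88. The knockout values were tightly grouped (4.87 ± 0.04, SD, n = 4) within the wider control spread (4.84 ± 0.16, SD, n = 4). The difference was 0.030 (SE 0.12; 95% interval -0.22 to 0.28; limma adjusted p = 0.915), and -0.038 without control replicate 3.

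The tip link cadherin genes were followed next. Pcdh15 read 5.15, 4.98, 4.86 and 5.02 in knockout and 4.94, 4.91, 4.90 and 4.88 in control animals. All but 1 of the knockout values lay above all controls, the exception being knockout replicate 3, which lay below them. The means were 5.001 ± 0.12 and 4.91 ± 0.03 (SD, n = 4), and the difference of 0.096 (SE 0.11; 95% interval -0.14 to 0.33; limma adjusted p = 0.682) was the highest of the 6 genes. Without knockout replicate 3 the groups no longer overlapped, with a difference of 0.14 that was not called. The share of all features without overlap in that smaller set was not computed, so this is a description only. Without knockout replicate 1 the difference was 0.047.

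A second feature also carried the symbol Pcdh15 alone. It read 4.26, 4.28, 4.40 and 4.47 in knockout and 4.35, 4.00, 4.18 and 4.26 in control animals. Its difference, 0.16 (SE 0.12; 95% interval -0.11 to 0.42; limma adjusted p = 0.538), had the same sign. Its mean of 4.27 put it in the second lowest of 10 equal groups of features by mean level. The median difference of that group was 0.14, and 78.7% of its features were above 0. The array that was highest among the knockouts differed between the 2 features, replicate 1 in the first and replicate 4 in the second.

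Cdh23 read 4.81, 4.75, 4.71 and 4.78 in knockout and 4.72, 4.52, 4.82 and 4.67 in control animals. The knockout values lay between the second highest control and the highest, except knockout replicate 3, which lay just under the second highest. The means were 4.77 ± 0.04 and 4.68 ± 0.12 (SD, n = 4), with a difference of 0.081 (SE 0.11; 95% interval -0.16 to 0.32; limma adjusted p = 0.737). Leaving out control replicate 2 gave 0.028, and leaving out control replicate 3 gave 0.13. In RefSeq (GRCm38.p6) the span of Cdh23 overlaps that of 3 other genes, Vsir among them, and that of Pcdh15 overlaps 4 pseudogenes and non-coding genes. Whether the array's probes fall in these was not tested.

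The feature shared by Tomt and Anapc15, a subunit of the anaphase-promoting complex, is given for completeness. It read 4.71, 4.68, 4.63 and 4.74 in knockout and 4.66, 4.49, 4.55 and 4.58 in control animals. Only control replicate 1 reached the knockout range. In the fit over all 41345 features the difference was 0.12 (SE 0.10; limma adjusted p = 0.612). Both group means of this feature, 4.69 in knockout and 4.57 in control, fell between 4.33 and 4.81. Tested features with means in that range had a median difference of 0.11. The signal cannot be assigned to either gene, and it is not a value for Tomt.

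**Figure D1:**
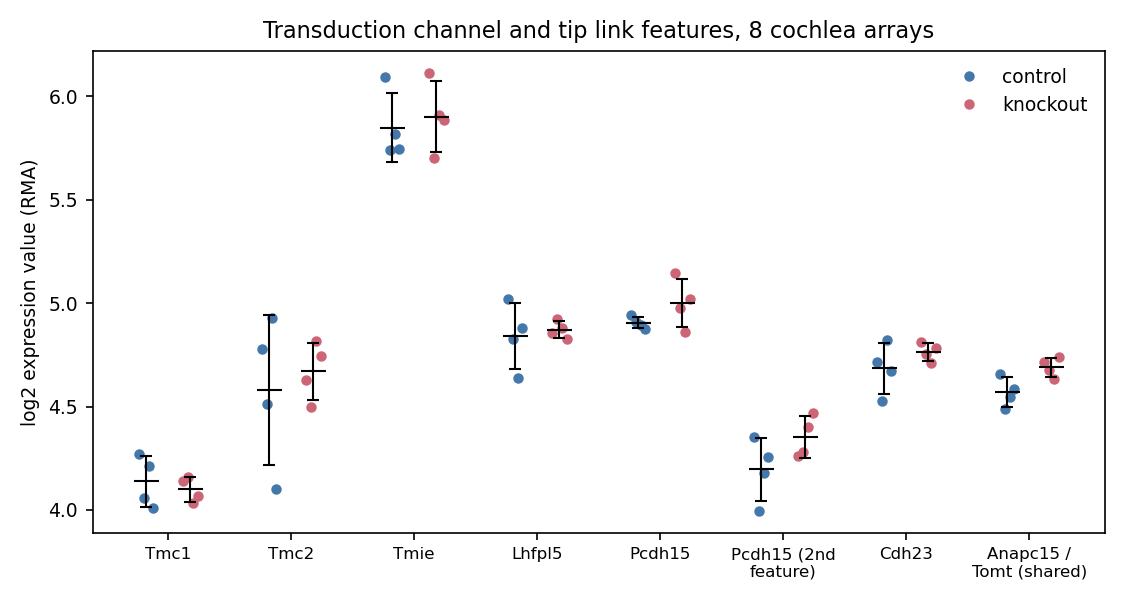
Log2 expression values (RMA) of the 6 measured genes, the second feature of Pcdh15 and the feature shared by Anapc15 and Tomt. Points are single animals (blue control, red knockout, 4 each), horizontal marks the mean and bars 1 SD. The groups overlap in every feature, and Tmc2 has the widest control spread, from 4.10 to 4.93.

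Taking the 6 genes as a set, 5 differences were above 0 and 1 below, with a median of 0.067. Over all tested features the median was 0.014, and 52.4% were above 0. On the deposited values the 6 intervals, each for 1 gene without adjustment for the others, reached down to 0.819-fold for Tmc1 and up to 1.36-fold for Tmc2, and changes within them could not be told from no change with 4 animals a group. These limits moved with the scaling of the arrays. In whole tissue, fewer hair cells and less RNA per hair cell cannot be told apart.

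Over all features the differences followed the signal level. Features were divided into 10 equal groups (deciles) by mean log2 value. In the second decile from the bottom, which holds Tmc1, the median difference was 0.14, and 78.7% of features were above 0. In the highest decile the median was -0.21. Tmc2 and Cdh23 were in the third decile (median 0.11), Lhfpl5 and Pcdh15 in the fourth (median 0.084) and Tmie in the seventh (median -0.035). Against its own decile Tmc1 stood lowest of the 6, at percentile 14.3 of the differences there, and Tmie highest, at percentile 69.3. The remaining 4 genes lay between percentiles 36.2 and 53.4.

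**Figure D2:**
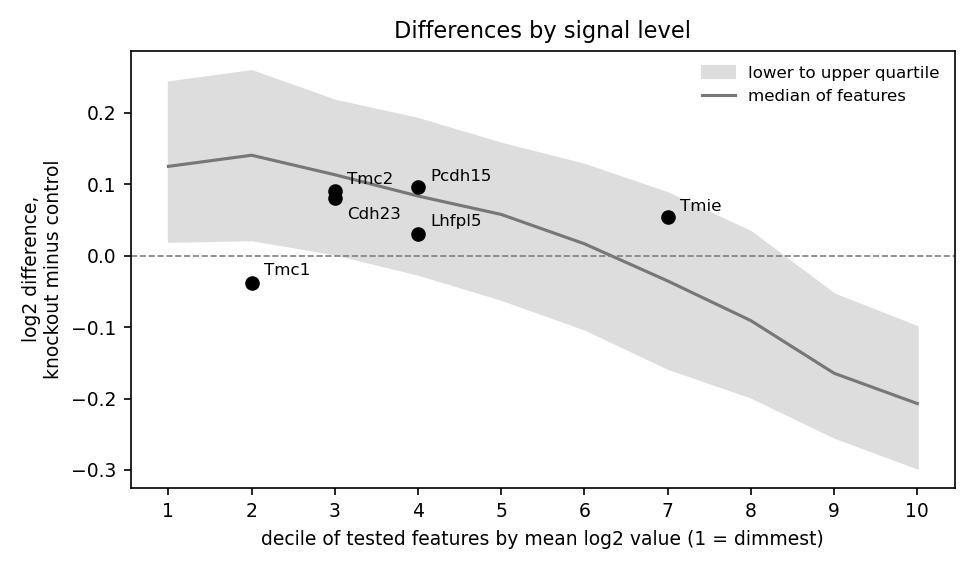
Log2 difference, knockout minus control, of the 6 measured genes (points) against the decile of features by mean log2 value. The grey line and band give the median and the quartiles of all features of each decile. Tmc1, at -0.038, lies below the band of its decile, and the remaining 5 genes lie inside theirs.

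Cyclic loess, which removes trends with signal level between arrays, turned the sign of 3 of the genes. After it Tmc1 was at -0.18 (SE 0.11; limma adjusted p = 0.630), with a 95% interval from -0.42 to 0.065, or from 0.748-fold to 1.05-fold. Lhfpl5 was at -0.070, Cdh23 at -0.028 and Tmc2 at -0.025, while Pcdh15 was at 0.0042 and Tmie at 0.083. None of these was called. Signal range was measured as the SD of the log2 values of the tested features within an array. It averaged 1.40 ± 0.03 over knockout and 1.49 ± 0.06 over control arrays (SD, n = 4). Its part in the differences was not tested beyond the alternatives listed.

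**Figure D3:**
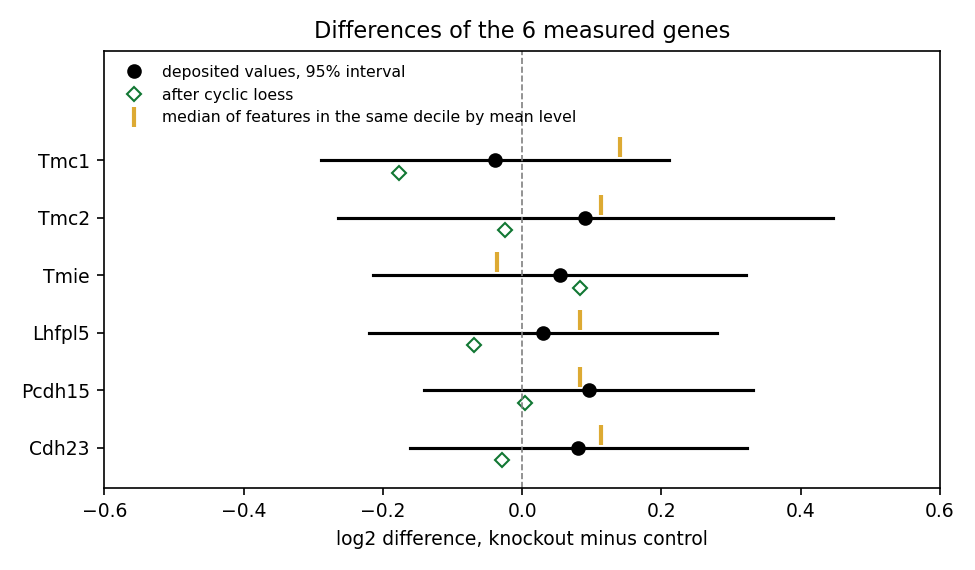
Log2 difference, knockout minus control, of each measured gene from the deposited values (black, with the 95% interval of the limma fit), after cyclic loess (green diamonds), and the median of all features in the same decile by mean level (yellow ticks). Every interval includes 0, and cyclic loess moves 3 of the genes (Tmc2, Lhfpl5 and Cdh23) from above to below it.

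No detection call was given with the values, so features of olfactory receptor genes (symbols that start with Olfr) served as a rough floor, since most are not known to be active in cochlea. The 1108 such features had a median mean level of 3.32 and a 95th percentile of 5.48. Of these features 84.0% were above 0 in the difference of knockout minus control, with a median of 0.19, beside the 5 of 6 and 0.067 of the transduction genes. Tmie, at a mean of 5.88, was above that percentile. Tmc1 (4.12), Tmc2 (4.63), Cdh23 (4.72), Lhfpl5 (4.86) and Pcdh15 (4.95) were above the median of these features but not above the 95th percentile. A level near this floor can understate a change, and probe sets differ in response, so these levels do not rank the transcripts.

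Markers of hair cells were checked in the same way. Of 10 markers, 8 were above the 95th percentile of the olfactory receptor features (5.48). Among them were Myo7a, at a mean of 5.94, and Pou4f3 (5.61) and Otof (5.57), which were only a little above it. Slc26a5 (4.54), the motor protein of outer hair cells, and Slc17a8 (5.19), the glutamate transporter of inner hair cells, were not. The 10 markers averaged 5.66 ± 0.09 in knockout and 5.71 ± 0.05 in the controls (SD, n = 4), with ranges of 5.58 to 5.78 and 5.65 to 5.76. Of the 10, only Myo6 was lower at an unadjusted limma p under 0.05 (-0.53, limma adjusted p = 0.301), against 7.25% of all features, and 0 were called. After cyclic loess Myo6 was at -0.45 and again the only 1 of the 10 under that p. The share of all features lower after cyclic loess was 4.05%, and 0 of the 10 were called. On the deposited values only Pou4f3 had groups without overlap, with knockout below as in 2.65% of all features. It ranged from 5.52 to 5.59 in knockout and from 5.61 to 5.69 in controls (-0.095, limma adjusted p = 0.647). With the hair cell level as a covariate, all 6 transduction genes kept their sign and none was called, but Tmie moved from 0.054 to 0.14 and Pcdh15 from 0.096 to 0.14.

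Markers of other cell types in the encapsulated cochlea were lower in more cases. Their lists were chosen with earlier results of these data known, so the counts are a description and not a test. On the deposited values only 12.3% of features in the highest decile by level were above 0. The shares over all features are therefore not matched to the level of the markers. At an unadjusted limma p under 0.05, 6 of 7 spiral ganglion neuron markers, 5 of 7 skeletal muscle markers, 4 of 6 supporting cell markers, 3 of 4 B cell markers, 2 of 5 strial, 2 of 5 bone, 1 of 3 erythroid and 1 of 3 Schwann cell markers were lower in knockout cochlea, and 0 of these were higher, against 7.25% of all features lower and 7.04% higher. After cyclic loess, run on the lists after the data were seen, the same counts were 5 of 7 neuron, 3 of 7 muscle, 3 of 6 supporting cell, 1 of 4 B cell, 1 of 5 strial, 2 of 5 bone, 0 of 3 erythroid and 1 of 3 Schwann cell markers, against 4.05% of all features. Snap25, a synaptic protein gene, was the only marker called on the deposited values (-1.09, limma adjusted p = 0.0389), and after cyclic loess it was at -0.87 and not called (limma adjusted p = 0.219). The muscle level ranged from 5.38 to 6.87 in knockout and from 6.65 to 8.87 in control animals, and the neuron level from 5.78 to 6.11 and from 6.40 to 6.96. Of the 2 vestibular markers and the 2 retinal markers measured, 0 were at an unadjusted p under 0.05. The part of these differences in the values of the transduction genes was not tested.

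Other genes of the transduction apparatus were read from the same fit. Of 12 listed, 11 were measured, with a median difference of 0.038, and 0 were called. At an unadjusted limma p under 0.05, 3 were higher and 1 was lower, against 7.04% and 7.25% of all features. After cyclic loess 1 was higher (Ush1g) and 0 lower, against 5.49% and 4.05% of all features. The groups did not overlap in 2 of the 11, with Ush1g above, as in 3.30% of all features, and Myo1c below, as in 2.65%. Myo7a and Atp2b2 also stand in the hair cell marker list. Of the 11, 7 had means above the 95th percentile of the olfactory receptor features. Gipc3 (5.26), Grxcr2 (5.30), Loxhd1 (5.24) and Cib3 (5.08) did not, and those olfactory features had a median difference of 0.19.

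Ush1g encodes the scaffold protein SANS at the upper tip link anchor. It ranged from 6.13 to 6.43 in knockout and from 5.93 to 6.09 in control animals, a difference of 0.25 (SE 0.11; limma adjusted p = 0.322). After cyclic loess it read 0.33 (limma adjusted p = 0.381). Gipc3, an adaptor protein required for hearing, was at 0.29 (limma adjusted p = 0.334), and Grxcr2, a protein of the stereocilia base, at 0.26 (limma adjusted p = 0.343). They read 0.23 and 0.20 after cyclic loess, with limma adjusted p of 0.562 and 0.566.

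Myo1c, a motor proposed to set tension in adaptation, ranged from 6.16 to 6.54 in knockout and from 6.55 to 6.86 in control animals. Its difference was -0.30 (SE 0.12; limma adjusted p = 0.306), and -0.17 after cyclic loess (limma adjusted p = 0.633). The partners of SANS at the upper anchor were closer to 0, with Myo7a, a motor protein, at 0.038 and Ush1c, the scaffold harmonin, at -0.094. Loxhd1, a stereocilia protein, was at 0.17, Cib3, a paralog of Cib2 used mainly in vestibular hair cells, at 0.096, and Atp2b2, the calcium pump of the bundle, at 0.024. Clic5, at the stereocilia base, was at -0.056 and Pkhd1l1, of the stereocilia coat, at -0.16. Under median-centring of the arrays Atp2b2 turned to -0.0073, and the remaining 10 kept their sign under each of the 3 scalings.

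**Figure D4:**
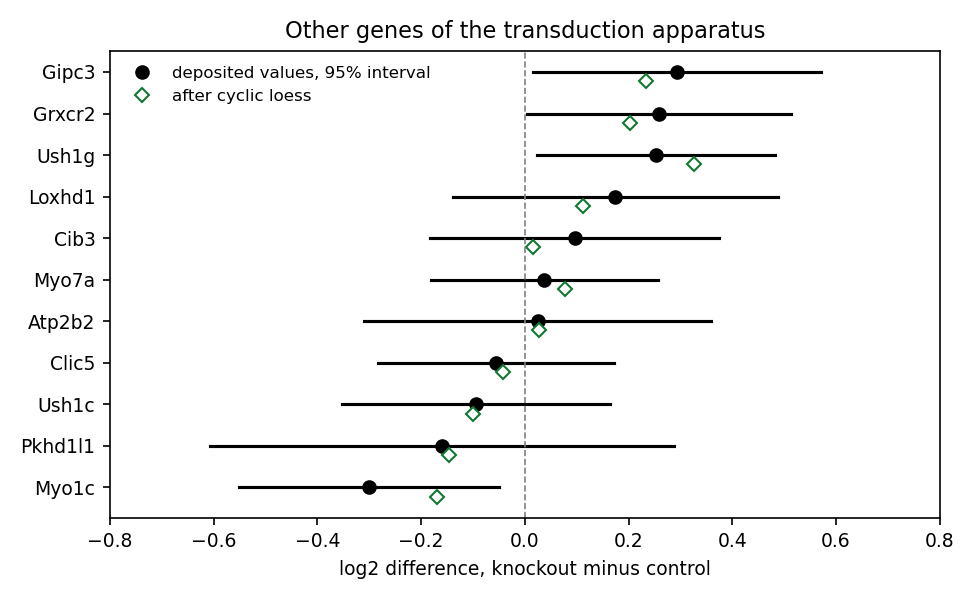
Log2 difference, knockout minus control, of 11 other genes of the transduction apparatus, from the deposited values (black, with the 95% interval of the limma fit) and after cyclic loess (green diamonds). The intervals of Gipc3, Grxcr2 and Ush1g lie above 0 and that of Myo1c below it, and none of the 11 passed the adjusted threshold.

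Paralogs of the transduction genes gave 0 calls among 14 measured, and 0 at an unadjusted limma p under 0.05, with a median difference of 0.021. Those with the smallest p were Tmc4 at 0.25, Lhfpl3 at -0.21, Lhfpl4 at 0.26 and Tmc3 at -0.33 (limma adjusted p = 0.381 to 0.455). Of the 14, 5 were above the 95th percentile of the olfactory receptor features, Tmc4 among them but not Lhfpl3, Lhfpl4 or Tmc3. After cyclic loess 3 of the 14 had an unadjusted limma p under 0.05, with Tmc4 higher at 0.35 and Tmc3 (-0.46) and Lhfpl3 (-0.29) lower, and 0 were called. Of 8 other channel genes linked to mechanical or stretch responses, 0 were called and 0 had an unadjusted limma p under 0.05 on the deposited values, with a median of -0.036. Tmem63b was at -0.23, the potassium channel gene Kcnk4 at 0.19, Piezo1 at -0.13 and Tmem63a at 0.095 (limma adjusted p = 0.402 to 0.678). After cyclic loess Tmem63a was at 0.21 and was the 1 of 8 with an unadjusted limma p under 0.05, Tmem63b was at -0.12, and Piezo1 turned to 0.027 (0.019 with quantile normalization repeated), with 0 called.

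The mean of the 6 genes, each centred on its own mean over the 8 arrays, was highest in control replicate 1 (0.11) and knockout replicate 1 (0.090) and lowest in control replicate 4 (-0.14). The 5 other genes whose values over the 8 arrays followed this mean most closely were 4931406H21Rik, Wt1, Sapcd1, Oacyl and Opn3, with Pearson correlations of 0.962 to 0.986. These are the highest of all genes over only 8 arrays, and are given as a description without a p-value. None of the 5 was called, and their differences ran from 0.013 to 0.11.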

How the data were processed

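Per the submitters' processing notes and labels, the authors used Affymetrix Expression Console to run gene-level RMA on Mouse Gene 2.0 ST arrays and deposited log2 values. RMA corrects background, normalizes quantiles and summarises the probes of a feature. The labels used here name no software version, annotation release or genome build. The annotation linked 23521 of 41345 features to 1 symbol, and these were tested with limma 3.58.1 in R 4.3.3 (lmFit, and eBayes with an intensity trend, genotype as the only term), with Benjamini-Hochberg adjustment over all of them and a threshold of 0.05. Intervals are 95% and from the same fit. The steps were tested on simulated data.

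The genes and lists were chosen with earlier results of these data known. Named were the transduction genes, every measured gene of the list of other transduction genes, up to 4 genes of each further pathway list by smallest p, and the 5 genes most like their mean. Tried as alternatives were a replicate block, robust variance or no trend in eBayes, all features, features with a mean of at least 5, 3 other scalings, array weights, signal range or hair cell level as covariates, another threshold and each array left out. Cyclic loess counts of the lists, and intervals after cyclic loess, were added after seeing the data. The number of arrays limits the precision.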

Additional observations from a re-analysis of the deposited data

How the results depend on the processing

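None of the 6 transduction genes was called under any alternative run. Called features numbered 1 over all features of the table, 8 with array weights, 1 with the signal range covariate, 7 at an adjusted p under 0.1, and 1 to 21 with 1 array left out. With the replicate number as a block the count was 3. The same-numbered arrays' deviations correlated at 0.057, 0.21, 0.21 and -0.29, so the numbers were not taken to pair the animals. Genes whose groups did not overlap numbered 0 to 1 with 1 array left out, where the share of all features was not computed.

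Signs turned, always without a call. Quantile normalization, repeated on the tested features alone, gave -0.024 for Cdh23, -0.059 for Lhfpl5 and -0.024 for Tmc2. Cyclic loess gave them -0.028, -0.070 and -0.025. The signal range covariate gave -0.029 for Cdh23, -0.39 for Tmc2, past an unadjusted limma p of 0.05, and -0.054 for Tmie. Lhfpl5 was at -0.0017 in median-centred arrays and -0.014 with array weights. With 1 array left out Cdh23 ran from 0.028 to 0.13 and Pcdh15 from 0.047 to 0.14, while Lhfpl5 ran from -0.038 to 0.090, Tmc1 from -0.081 to 0.0059, Tmc2 from -0.069 to 0.21 and Tmie from -0.017 to 0.14. Pcdh15 kept its sign in all 19 alternatives, a count that takes in its second feature, which is not another run. Some of the runs, such as the replicate block and robust variance, cannot change a difference. Quantile normalization repeated took Pcdh15 to 0.016 and cyclic loess took it to 0.0042. Only Tmie was left at a mean of at least 5, so the other 5 genes have no value there. Signal near the rough floor limits 5 of the 6 genes.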

Other observations

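In 12 sets of 4 values (6 genes in each group), 0 animals stood apart by Dixon's 95% criterion. The nearest was control replicate 1 in Tmie, whose gap of 0.786 of the range separated 6.09 from the other controls.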
